A study of Mus musculus with 9 samples.

Results

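The clustered replication-dependent histone genes were described in splenic plasma cells of 3 mouse genotypes. They were taken as every row of the count table whose gene symbol begins with Hist1h, Hist2h, Hist3h or Hist4h, which gave 70 of 46958 rows. No measured value enters that rule. The gene family was, however, put forward with earlier results of these same counts known, so the counts of members called in a comparison are given as a description. By their symbols, 6 of the 70 members belong to the linker histone H1, 20 to H2A, 19 to H2B, 12 to H3 and 13 to H4, pseudogenes included. The Hist1 group, on chromosome 13, holds 56 of them, Hist2 on chromosome 3 holds 10, Hist3 on chromosome 11 holds 3, and Hist4 on chromosome 6 is the single gene Hist4h4. The annotation lists 67 as protein coding, 2 as processed pseudogenes (Hist3h2bb-ps and Hist1h2al) and 1, Hist1h2aj, as an unprocessed pseudogene.

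RNA was sequenced from cells taken with magnetic beads against CD138, a surface proteoglycan of plasma cells, from unimmunized mice aged 3 months. The genotypes were wild type (WT), DH-LMP2A and kFRA, the last of which is marked in the labels as the model of light chain deposition disease (LCDD), in which a monoclonal immunoglobulin light chain is deposited in tissues. Each genotype had 3 mice, each mouse gave 1 library from the whole CD138-positive fraction of its spleen, and all were of a mixed C57/BL6x129/SVxBALB/c background. LMP2A is a membrane protein of the Epstein-Barr virus. The labels do not describe the DH-LMP2A and kFRA alleles further, nor do they say whether kFRA mice also carry the DH-LMP2A allele, and they put the purity of the fraction above 80%.

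Replication-dependent histone genes supply the histones that package newly copied DNA, and they are transcribed mainly in S phase. Their messenger RNAs are unusual in that they end in a conserved stem-loop, bound by the protein SLBP, instead of a poly(A) tail. Cleavage after the stem-loop needs the U7 ribonucleoprotein and a shared set of cleavage factors, and NPAT drives transcription of the clusters. Some of these genes also make polyadenylated transcripts, particularly in cells that have stopped dividing, and plasma cells are for the most part such cells. The libraries were made with a kit that selects polyadenylated messenger RNA, so the values below are of reads that survived this selection and are not a measure of total histone messenger RNA.

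The stem-loop itself is shown because it decides how these messengers end. A search of the GENCODE M21 transcripts (GRCm38) on the transcript strand for GG, any 2 bases, CTTTT, any base, AG, any 2 bases and CC found it in 44 of the 70 members (62.9%) and in 28 of 21834 other protein-coding genes (0.128%). In the sequences below, written 5′ to 3′ as DNA letters, capitals mark the matched stem-loop and lower case marks the bases around it. The members shown are those with the highest levels or with a call described below, and cover 4 of the 6 forms found. The matched bases lie at chr13:23739512-23739527 (plus strand) for Hist1h1c, chr13:23621782-23621797 (minus) for Hist1h1e, chr3:96239784-96239799 (minus) for Hist2h2aa2, chr13:22036300-22036315 (plus) for Hist1h2bk, chr13:23571843-23571858 (plus) for Hist1h2bg, chr11:58949349-58949364 (plus) for Hist3h2ba, chr13:22040966-22040981 (minus) for Hist1h4i, chr13:21812129-21812144 (plus) for Hist1h4m, chr13:21831798-21831813 (minus) for Hist1h4n and chr6:136803998-136804013 (minus) for Hist4h4.
Hist1h1c: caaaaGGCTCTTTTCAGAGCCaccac
Hist1h1e: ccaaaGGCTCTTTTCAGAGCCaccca
Hist2h2aa2: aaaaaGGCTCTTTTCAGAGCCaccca
Hist1h2bk: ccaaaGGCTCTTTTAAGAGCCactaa
Hist1h2bg: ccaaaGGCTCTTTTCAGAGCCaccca
Hist3h2ba: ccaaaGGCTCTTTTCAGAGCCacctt
Hist1h4i: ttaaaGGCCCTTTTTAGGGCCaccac
Hist1h4m: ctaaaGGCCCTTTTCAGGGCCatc
Hist1h4n: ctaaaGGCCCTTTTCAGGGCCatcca
Hist4h4: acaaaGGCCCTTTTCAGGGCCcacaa

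The most frequent form, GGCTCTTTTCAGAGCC, was found in 26 members, among them Hist1h1c, Hist1h1e, Hist2h2aa2, Hist1h2bg and Hist3h2ba. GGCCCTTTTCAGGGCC was found in 7 members, including Hist1h4m, Hist1h4n and Hist4h4. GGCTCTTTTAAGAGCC, the form of Hist1h2bk, was found in 6, and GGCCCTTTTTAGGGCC, the form of Hist1h4i, in 2. In the table's gene models 29 members had fewer than 100 counted bases past the stem-loop, such as Hist1h1e with 27 and Hist1h4m with 3. A further 13 had 100 or more, such as Hist1h1c with 840, Hist1h4i with 330, Hist3h2ba with 169 and Hist4h4 with 2445, and 2 had the motif outside the counted exons. No match was found for the other 26, which says only that these letters are not in their annotated transcripts.

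Total counts per library ran from 15449026 to 21558128, and the members together took 2119 to 3789 counts, or 0.0105 to 0.0184% of each library. Levels are given as CPM, the counts divided by the library's total after TMM scaling (a trimmed mean of log ratios that corrects for composition) and set to a common total, where 3 counts, taken as the floor of detection, were worth 0.127 to 0.205 CPM. Of the libraries, DH-LMP2A replicate 3 had the highest value of 19 of the 41 members tested, against 1586 of all 14199 genes tested. It also had the highest summed level of 8 erythroid markers, 12841 CPM, where the other DH-LMP2A libraries had 2424 and 2528, kFRA 1093 to 2582 and WT 49.7 to 333. kFRA replicate 2 stood apart from the other kFRA libraries in proliferation markers, with Mki67 at 433 CPM against 115 and 122. Markers of plasma cells summed to 31049 to 43427 CPM in DH-LMP2A, 18514 to 29437 in kFRA and 18199 to 23335 in WT, and 2 of the 8 were higher and 1 lower in DH-LMP2A than in WT, with no overlap of the summed levels; their part in the results below was not tested. Those of B cells summed to 362 to 537 CPM in DH-LMP2A, 200 to 228 in kFRA and 298 to 599 in WT, and those of myeloid cells to 494 to 1483, 833 to 1451 and 1929 to 3294. Of the 8 B cell markers, 2 were higher and 3 lower in DH-LMP2A than in WT (median log2 -1.57), and 6 were lower in kFRA than in WT. Of the 8 myeloid markers, 1 was higher and 1 lower in DH-LMP2A than in WT, and 4 were lower in kFRA than in WT. In each of these 2 lists, 2 markers were lower in kFRA than in DH-LMP2A. Their part in the results below was not tested either. Markers of T cells summed to 33.1 to 99.4 CPM and none of them passed in any comparison by edgeR, nor reached an unadjusted p below 0.05.

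Most members were barely represented. Of the 70, 41 passed the filter on low counts and were tested, 21 averaged 1 CPM or more and 2, Hist1h1c and Hist2h2aa2, 10 or more. Those 2 took 58.6% of all counts of the members and were the only ones with 100 counts or more in every library. Among the 29 not tested, 25 had a count in some library, the highest mean being 0.314 CPM for Hist1h2bl and the highest single count 14. The 4 members without a count in any library were Hist2h2aa1, Hist2h3c1, Hist1h2aa and Hist1h1t, the last of them the testis H1. Hist2h2aa1 and Hist2h3c1 are overlapped on their own strand by the row Gm20634 over 90.3% and 100% of their exons, and how reads in shared exons were counted is not given in the sources used here.

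Per kilobase of gene model, the order of the leading members was Hist1h1c at 45.1 CPM per kb over all libraries, Hist2h2aa2 at 36.1, Hist1h2al at 13.3, Hist1h2bc at 11.5 and Hist1h2bg at 7.74. The median member was at 1.51 CPM per kb among H1 genes, 1.68 among H4, 0.805 among H2B, 0.544 among H3 and 0.356 among H2A. Near-identical copies limit these levels. Of the 70 members, 63 share at least 1 stretch of 75 bases, the read length, with the transcript of another gene, and 35 share at least 50% of such stretches. How reads that fit several copies were counted is not given in the sources used here.

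Among the linker histones, which bind the DNA between nucleosomes, Hist1h1b, Hist1h1e and Hist1h1a rose in DH-LMP2A against WT, while the far more abundant Hist1h1c stayed within the spread of the libraries. Hist1h1b (chr13:21779883-21780625, minus strand) was at 2.16, 1.16 and 2.93 CPM in DH-LMP2A replicates 1 to 3, 0.752, 0.808 and 0.627 in kFRA and 0.506, 0.408 and 0.255 in WT. The DH-LMP2A libraries were all above the kFRA libraries, and these were all above the WT libraries. By edgeR's quasi-likelihood F test over all genes, Hist1h1b was 5.20-fold higher in DH-LMP2A than in WT (log2 2.38, SE 0.42, adjusted p = 0.00637). Its difference between kFRA and WT (log2 0.88, SE 0.45, adjusted p = 0.192) and between kFRA and DH-LMP2A (log2 -1.50, SE 0.39, adjusted p = 0.0644) did not pass, though the latter did without DH-LMP2A replicate 2 (adjusted p = 0.0402). Hist1h1b shares no 75-base stretch with another gene, and its call against WT held in all 6 fits that leave out a library, with log2 values of 2.07 to 2.67. Its WT levels rest on few counts, and the 0.255 CPM of WT replicate 3 lay near the floor of 0.191 CPM in that library.

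Hist1h1e was the most abundant H1 gene after Hist1h1c. It lay at 5.07, 2.46 and 8.92 CPM in DH-LMP2A, 1.85, 2.71 and 2.95 in kFRA and 1.77, 0.459 and 0.509 in WT. Every DH-LMP2A and kFRA library was above the 3 WT libraries, and DH-LMP2A replicate 2 fell within the kFRA range. Hist1h1e was 5.90-fold higher in DH-LMP2A than in WT (log2 2.56, SE 0.60, edgeR adjusted p = 0.0229). Between kFRA and WT the log2 difference was 1.43 (SE 0.60, edgeR adjusted p = 0.126), and without WT replicate 1 it was 2.36 (edgeR adjusted p = 0.0400). Hist1h1a was at 1.78, 0.834 and 2.10 CPM in DH-LMP2A, 0.752, 1.09 and 1.0 in kFRA and 0.708, 0.255 and 0.255 in WT. Its DH-LMP2A libraries were all above those of WT, with a 3.77-fold difference (log2 1.92, SE 0.50, edgeR adjusted p = 0.0346). In WT replicates 2 and 3, where Hist1h1a was at 0.255 CPM, the floor was 0.153 and 0.191 CPM.

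Hist1h1c was at 71.8, 68.3 and 59.9 CPM in DH-LMP2A, 95.2, 50.2 and 89.1 in kFRA and 70.04, 70.9 and 58.2 in WT. The 3 groups overlapped, and the widest spread was within kFRA, where replicate 2 was the lowest of all 9 libraries. Differences between groups were log2 0.01 (SE 0.22) for DH-LMP2A against WT, 0.23 (SE 0.22) for kFRA against WT and 0.23 (SE 0.22) for kFRA against DH-LMP2A. Without kFRA replicate 2, Hist1h1c was called higher in kFRA than in WT (log2 0.54, edgeR adjusted p = 0.0140) and than in DH-LMP2A (log2 0.53, edgeR adjusted p = 0.0234). Hist1h1d, at 1.06, 0.788 and 3.02 CPM in DH-LMP2A, 0.615, 1.71 and 1.0 in kFRA and 0.911, 0.306 and 0.700 in WT, passed in no comparison. Summed over the 5 H1 genes other than Hist1h1c, DH-LMP2A reached 10.8 ± 5.89 CPM (SD, n = 3), kFRA 5.29 ± 1.21 CPM and WT 2.35 ± 1.35 CPM.

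**Figure D1:**
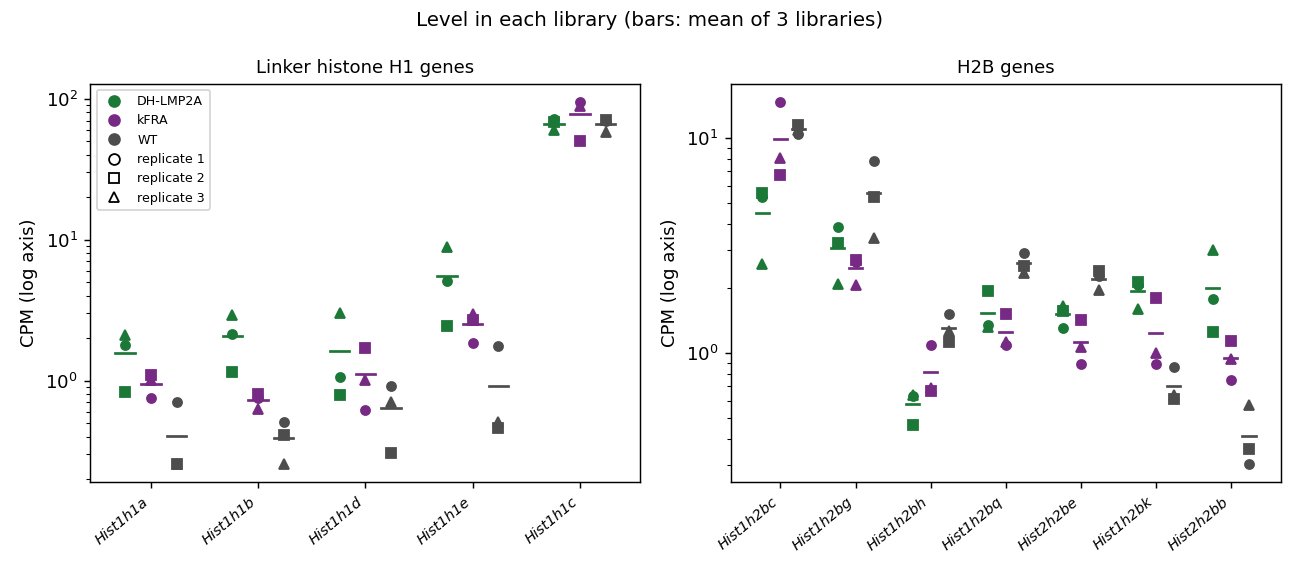
CPM on a log axis of 5 H1 genes (left) and 7 H2B genes (right) in each library; colours give the genotype, symbols the replicate number, short bars the mean of 3 libraries. Hist1h1c lay between 50.2 and 95.2 CPM with overlapping groups, whereas Hist1h1b was at 1.16 CPM or more in DH-LMP2A and at 0.506 or less in WT; Hist2h2bb had the same order and Hist1h2bq was highest in WT.

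The calls on Hist1h1e and Hist1h1a were each kept in 2 of 6 fits that leave out a library, and lost without DH-LMP2A replicate 1 (adjusted p = 0.0558 and 0.103), DH-LMP2A replicate 3 (0.0581 and 0.0978), WT replicate 2 (0.0865 and 0.131) or WT replicate 3 (0.0709 and 0.0983), all by edgeR. In each of these fits the log2 difference stayed between 2.04 and 3.49 for Hist1h1e and between 1.66 and 2.59 for Hist1h1a. Erythroid markers were highest in DH-LMP2A replicate 3, the library in which Hist1h1b, Hist1h1e, Hist1h1d and Hist1h1a were also highest. Without that library Hist1h1b was still called (log2 2.07, adjusted p = 0.0188 by edgeR). The remaining DH-LMP2A libraries also had more of the summed erythroid markers, 2424 and 2528 CPM, than WT at 49.7 to 333. Leaving out replicate 3 therefore does not separate the 2, and the part of other cells in these differences was not tested. In bulk samples of this kind, fewer cells of a type and less RNA per cell cannot be told apart.

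The stretch before the start site is shown for 3 H1 genes as examples, the most abundant one and the 2 with the largest log2 differences between DH-LMP2A and WT. The sequences are the 250 bases upstream of the RefSeq start (GRCm38.p6), at chr13:21780626-21780875 (minus strand), chr13:23622559-23622808 (minus) and chr13:23738557-23738806 (plus), written 5′ to 3′ on the gene's strand. Capitals mark matches, on either strand, to the box CCAAT, which NF-Y binds, to the box TATAAA, a form of the TBP site, and to AAACACA, an element known from H1 promoters.
Hist1h1b: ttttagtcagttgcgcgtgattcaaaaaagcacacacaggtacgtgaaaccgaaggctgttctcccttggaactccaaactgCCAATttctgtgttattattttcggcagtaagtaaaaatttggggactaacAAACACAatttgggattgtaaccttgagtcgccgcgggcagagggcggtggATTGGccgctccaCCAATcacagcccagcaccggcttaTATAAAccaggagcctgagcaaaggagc
Hist1h1e: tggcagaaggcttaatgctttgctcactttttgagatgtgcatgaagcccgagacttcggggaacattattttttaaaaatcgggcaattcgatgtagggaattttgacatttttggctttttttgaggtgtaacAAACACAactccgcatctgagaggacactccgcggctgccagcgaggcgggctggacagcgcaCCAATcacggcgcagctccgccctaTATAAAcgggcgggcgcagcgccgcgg
Hist1h1c: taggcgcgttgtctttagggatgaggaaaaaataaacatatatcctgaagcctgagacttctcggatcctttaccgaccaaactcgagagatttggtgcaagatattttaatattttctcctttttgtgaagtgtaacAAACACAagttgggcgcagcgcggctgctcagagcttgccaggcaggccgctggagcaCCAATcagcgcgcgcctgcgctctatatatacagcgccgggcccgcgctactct

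Hist1h1b holds all 3 motifs, as does Hist1h1e, and Hist1h1c holds the other 2 but not the exact letters TATAAA. Hist1h1d, which passed in no comparison, also holds all 3. Hist1h1a, which was called in DH-LMP2A against WT, does not hold the letters of the H1 element in this window. Whether the motifs bear on the levels was not tested. The H1 element was found in 5 of 6 H1 promoters (83.3%) and in 6.2% of the 32851 promoters in the RefSeq table. The NF-Y box was found in 82.3% of the 62 members with a promoter in that table, in all 6 H1, all 18 H2A and all 16 H2B promoters but in 3 of 12 H4 promoters, against 33.8% of all promoters. That form of the TBP site was found in 46.8% of members against 12.4%. The octamer ATTTGCAT, the site of OCT factors, was found in 7 of 18 H2A and 6 of 16 H2B promoters and in none of H1, H3 or H4, against 1.6% of all promoters. Motifs were searched on both strands and allowed to overlap, and a match is a description of letters only.

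Among the H2A genes, Hist1h2an rose in both mutant genotypes against WT and Hist3h2a fell in DH-LMP2A. Hist1h2an (chr13:21786826-21787218, minus strand) was at 1.56, 1.30 and 2.42 CPM in DH-LMP2A, 1.44, 1.90 and 1.07 in kFRA and 0.708, 0.510 and 0.509 in WT. All 6 mutant libraries were above the 3 WT libraries, and the 2 mutant groups overlapped. It was 3.03-fold higher in DH-LMP2A than in WT (log2 1.60, SE 0.36, edgeR adjusted p = 0.0209) and 2.54-fold higher in kFRA (log2 1.34, SE 0.37, edgeR adjusted p = 0.0359). Both comparisons use the same WT libraries, and 84.6% of its 75-base stretches occur in other H2A genes. Each call held in 2 of 6 fits that leave out a library, and was lost for DH-LMP2A without DH-LMP2A replicate 1 (edgeR adjusted p = 0.0512) or 3 (0.0627) or WT replicate 2 (0.0848) or 3 (0.0640), and for kFRA without kFRA replicate 1 (0.0891) or any WT replicate (0.0616 to 0.124).

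Hist3h2a, a gene of the small chromosome 11 group (chr11:58954685-58956830, plus strand), was at 0.972, 1.30 and 1.74 CPM in DH-LMP2A, 1.64, 1.24 and 2.13 in kFRA and 3.14, 3.21 and 2.86 in WT. The WT libraries were all above the 6 others. It was 2.30-fold lower in DH-LMP2A than in WT (log2 -1.20, SE 0.30, edgeR adjusted p = 0.0290), and its log2 difference in kFRA was -0.89 (SE 0.30, edgeR adjusted p = 0.0679). The DH-LMP2A call was kept without DH-LMP2A replicate 3 and lost without each of the other 5 libraries (edgeR adjusted p = 0.0559 to 0.113). Rows on the same strand, Trim17 among them, overlap 33.0% of its exons.

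The H2A gene with the highest level, Hist2h2aa2 (chr3:96239749-96240276, minus strand), passed in no comparison. Its levels were 20.3, 17.0 and 19.3 CPM in DH-LMP2A, 18.8, 14.2 and 18.4 in kFRA and 18.1, 22.02 and 23.2 in WT, with overlapping groups. All of its 75-base stretches occur elsewhere, in Hist2h2aa1 among others, so its 275 to 481 counts per library cannot be told apart from those of that copy, and the row Gm20632 covers it on the opposite strand. Hist1h2al, listed as a processed pseudogene at chr13:51202688-51203065, outside the main cluster, was at 6.30, 5.24 and 9.97 CPM in DH-LMP2A, 4.78, 2.23 and 4.07 in kFRA and 3.90, 4.43 and 4.39 in WT. The DH-LMP2A libraries were all above the others, but no difference passed (log2 0.76, SE 0.32, edgeR adjusted p = 0.166 against WT, and log2 -0.96, SE 0.32, edgeR adjusted p = 0.131 for kFRA against DH-LMP2A). Hist1h2al shares 45.7% of its 75-base stretches with other genes, Hist2h2aa1 among them.

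The H2B genes moved in both directions. Hist2h2bb and Hist1h2bk rose in DH-LMP2A against WT, Hist1h2bc and Hist1h2bh fell there, and Hist3h2ba, Hist1h2bq, Hist2h2be and Hist1h2bg fell in kFRA against WT. Hist2h2bb (chr3:96269721-96279001, plus strand) was at 1.78, 1.25 and 3.02 CPM in DH-LMP2A, 0.752, 1.14 and 0.940 in kFRA and 0.304, 0.357 and 0.573 in WT. The 3 groups did not overlap, in the order DH-LMP2A, kFRA, WT. It was 4.91-fold higher in DH-LMP2A than in WT (log2 2.30, SE 0.43, edgeR adjusted p = 0.00831), a call kept in all 6 fits that leave out a library. Its kFRA against WT difference did not pass (log2 1.22, SE 0.45, edgeR adjusted p = 0.0867). The row counts 1666 bases in 2 exons, where the longest transcript of the gene in GENCODE M21 has 381 bases. It has a distant second exon that Gm42743 overlaps on the same strand in GENCODE M21, and reads of the 2 cannot be told apart there. The row Gm20628 covers 24.7% of its exons on the opposite strand. Which exon the reads came from is not given by the counts, so the call is of the row and may not be of the histone transcript.

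Hist1h2bk was at 2.07, 2.13 and 1.60 CPM in DH-LMP2A, 0.888, 1.81 and 1.0 in kFRA and 0.860, 0.612 and 0.636 in WT. Its DH-LMP2A libraries were all above those of WT, and kFRA lay between with replicate 2 inside the DH-LMP2A range. The DH-LMP2A level was 2.73-fold that of WT (log2 1.45, SE 0.35, edgeR adjusted p = 0.0247). It was lost without DH-LMP2A replicate 1 or 2 or WT replicate 2 or 3 (edgeR adjusted p = 0.0667 to 0.0989), and kept without the other 2. Hist1h2bk shares 72.6% of its 75-base stretches with other genes.

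Hist1h2bc, the most abundant H2B gene per kilobase, was at 5.33, 5.56 and 2.61 CPM in DH-LMP2A, 14.8, 6.75 and 8.09 in kFRA and 10.4, 11.6 and 10.9 in WT. DH-LMP2A was below every library of the other genotypes, and kFRA and WT overlapped. It was 2.44-fold lower in DH-LMP2A than in WT (log2 -1.29, SE 0.35, edgeR adjusted p = 0.0409), and that call was lost without any 1 of the 6 libraries (edgeR adjusted p = 0.0613 to 0.115). The kFRA against DH-LMP2A difference was log2 1.13 (SE 0.35, edgeR adjusted p = 0.106), and without kFRA replicate 2 it was log2 1.40 (edgeR adjusted p = 0.0240). Hist1h2bh, named here after its values were seen, was at 0.634, 0.464 and 0.640 CPM in DH-LMP2A, 1.09, 0.665 and 0.689 in kFRA and 1.52, 1.12 and 1.27 in WT. All DH-LMP2A libraries of it were below the rest, 2.24-fold lower than WT (log2 -1.16, SE 0.32, edgeR adjusted p = 0.0443), a call kept in none of the 6 fits that leave out a library.

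Hist3h2ba, a second gene of the chromosome 11 group (chr11:58948920-58949533, plus strand), was nearly absent from kFRA. Counts were 0, 2 and 0 in kFRA, 2, 4 and 11 in DH-LMP2A and 18, 22 and 19 in WT, and the 3 groups overlapped only between kFRA and DH-LMP2A. Over the pooled libraries the WT level was 27.6 times that of kFRA, with a 95% counting interval of 7.32 to 234 (edgeR adjusted p = 0.00699). The DH-LMP2A level was 6.54 times that of kFRA, with a counting interval of 1.55 to 58.4, and that difference did not pass (edgeR adjusted p = 0.177). The call of kFRA against WT was kept in all 6 fits that leave out a library. DH-LMP2A against WT did not pass (edgeR adjusted p = 0.0612), but did so without DH-LMP2A replicate 3 (edgeR adjusted p = 0.0260).

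The other 3 H2B genes that fell in kFRA against WT did so about 2-fold. Hist1h2bq was at 1.09, 1.52 and 1.13 CPM in kFRA, 2.94, 2.55 and 2.35 in WT and 1.35, 1.95 and 1.33 in DH-LMP2A (2.08-fold lower in kFRA than in WT, log2 -1.05, SE 0.27, edgeR adjusted p = 0.0283). Hist2h2be was at 0.888, 1.43 and 1.07 in kFRA, 2.28, 2.4 and 1.97 in WT and 1.31, 1.58 and 1.65 in DH-LMP2A (1.95-fold lower, log2 -0.96, SE 0.27, edgeR adjusted p = 0.0378). In both genes every WT library was above every other library. Hist1h2bg was at 2.67, 2.71 and 2.07 in kFRA, 7.84, 5.30 and 3.44 in WT and 3.85, 3.24 and 2.10 in DH-LMP2A (2.23-fold lower, log2 -1.16, SE 0.34, edgeR adjusted p = 0.0456), and its WT libraries spread the most. Hist2h2be shares no 75-base stretch with another gene, whereas Hist1h2bq shares 96.1% and Hist1h2bg 64.0%.

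These 3 calls depended on single libraries. Each was lost without kFRA replicate 1 (edgeR adjusted p = 0.100, 0.128 and 0.112 for Hist1h2bq, Hist2h2be and Hist1h2bg), kFRA replicate 3 (0.0843, 0.101 and 0.138), WT replicate 1 (0.0842, 0.0910 and 0.153) or WT replicate 2 (0.0791, 0.122 and 0.108), and Hist2h2be also without WT replicate 3 (0.0557). Under library size alone, which shifts the median of all genes for kFRA against WT to log2 0.17, all 3 stayed lower in kFRA without passing (edgeR adjusted p = 0.118, 0.150 and 0.136). Markers of B cells were called lower in kFRA than in WT for 6 of 8, and their part in these values was not tested.

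Of the 4 H3 genes tested, Hist1h3i rose in both mutant genotypes. It was at 1.10, 0.649 and 0.915 CPM in DH-LMP2A, 0.683, 0.808 and 0.877 in kFRA and 0.253, 0.408 and 0.318 in WT. Every mutant library was above every WT library. The difference was 2.69-fold in DH-LMP2A (log2 1.43, SE 0.36, edgeR adjusted p = 0.0302) and 2.4-fold in kFRA (log2 1.26, SE 0.37, edgeR adjusted p = 0.0431), against the same WT libraries. Hist1h3i had 5 to 26 counts per library, 78.3% of its 75-base stretches occur in other H3 genes, and each call was kept in only 1 of 6 fits that leave out a library (edgeR adjusted p up to 0.129 and 0.133). Hist1h3h, with 1 to 31 counts and a level of 0.888, 1.11 and 1.42 CPM in DH-LMP2A, 0.683, 0.951 and 0.877 in kFRA and 0.506, 0.0510 and 0.445 in WT, had the same order of groups but did not pass (log2 1.77, SE 0.55, edgeR adjusted p = 0.0693 for DH-LMP2A against WT). It shares 93.5% of its 75-base stretches with other genes.

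H4 held the single member called between kFRA and DH-LMP2A. Hist1h4m (chr13:21811746-21812147, plus strand) was at 0.820, 0.808 and 1.13 CPM in kFRA, 2.41, 2.13 and 4.85 in DH-LMP2A and 1.72, 1.48 and 1.53 in WT. All kFRA libraries were below the WT libraries, and these were below those of DH-LMP2A. It was 3.40-fold lower in kFRA than in DH-LMP2A (log2 -1.76, SE 0.36, edgeR adjusted p = 0.0248). Neither kFRA against WT (log2 -0.78, SE 0.37, edgeR adjusted p = 0.168) nor DH-LMP2A against WT (log2 0.99, SE 0.35, edgeR adjusted p = 0.100) passed. The call was lost without DH-LMP2A replicate 1 (edgeR adjusted p = 0.0539) or 3 (0.0638) and without kFRA replicate 1 (0.114) or 3 (0.0565), and 89.0% of its 75-base stretches occur in other H4 genes.

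Hist1h4n was at 1.86, 1.34 and 3.43 CPM in DH-LMP2A, 0.888, 0.713 and 0.940 in kFRA and 0.607, 0.815 and 0.318 in WT. The DH-LMP2A libraries were above all others, and it was 3.73-fold higher than in WT (log2 1.90, SE 0.44, edgeR adjusted p = 0.0227), kept in 2 of 6 fits that leave out a library. The 4 that lost it were without DH-LMP2A replicate 1 or 3 or WT replicate 1 or 3 (edgeR adjusted p = 0.0520 to 0.0687). Of the 75-base stretches of Hist1h4n, 83.4% occur in other genes, Hist1h4m among them, so the 2 were not measured separately there.

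Hist1h4a had almost no counts in WT. There were 10, 6 and 17 in DH-LMP2A, 11, 11 and 8 in kFRA and 1, 0 and 2 in WT, so that all mutant libraries lay above WT. Pooled, the level was 9.03 times that of WT in DH-LMP2A (95% counting interval 2.83 to 46.0, edgeR adjusted p = 0.0297) and 10.7 times in kFRA (3.32 to 54.6, edgeR adjusted p = 0.0179). Leaving out a library kept the call in 2 of 6 fits for DH-LMP2A, with adjusted p-values up to 0.0972 by edgeR, and in 3 of 6 for kFRA, with values up to 0.0628.

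Hist4h4, on chromosome 6 (chr6:136801553-136804415, minus strand), was at 1.09, 0.808 and 0.877 CPM in kFRA, 0.55, 0.695 and 0.777 in DH-LMP2A and 0.304, 0.408 and 0.382 in WT. The 3 groups did not overlap. It was 2.51-fold higher in kFRA than in WT (log2 1.33, SE 0.33, edgeR adjusted p = 0.0249), and kept only without kFRA replicate 2 (edgeR adjusted p = 0.0568 to 0.0945 without the other 5). The most abundant H4 gene, Hist1h4i, at 3.26, 3.20 and 3.48 CPM in DH-LMP2A, 6.22, 4.47 and 4.64 in kFRA and 4.00, 5.20 and 4.65 in WT, passed in no comparison, although its DH-LMP2A libraries were below all others; the log2 difference of kFRA against DH-LMP2A was 0.62 (edgeR adjusted p = 0.128), and without kFRA replicate 2 it was 0.77 and passed (edgeR adjusted p = 0.0339).

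Counted over the family, DH-LMP2A differed from WT in the most members. Of the 41 tested, 9 were higher (22%) and 3 lower (7.32%), where 5.07% of all tested genes were called higher and 7.3% lower (12.4% in either direction). The 9 were Hist1h1a, Hist1h1b, Hist1h1e, Hist1h2an, Hist1h2bk, Hist2h2bb, Hist1h3i, Hist1h4a and Hist1h4n, and the 3 were Hist3h2a, Hist1h2bc and Hist1h2bh. The median log2 difference was 0.73 over the tested members and -0.01 over all tested genes. In 18 members all DH-LMP2A libraries were above all WT libraries and in 8 all were below, where 17.5% and 19.1% of all tested genes were so. Of the 12 calls, 2 were kept without DH-LMP2A replicate 1 and 4 without DH-LMP2A replicate 3, where Hist3h2ba was called as well. Without WT replicate 1, 6 were kept, and 3 each without WT replicate 2 or 3. Library size alone gave 18 higher and 0 lower while moving the median of all genes to log2 0.33.

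For kFRA against WT, 4 members were higher (9.76%) and 4 lower (9.76%), against 6.68% and 11.1% of all tested genes (17.8% in either direction). Those higher were Hist1h4a, Hist4h4, Hist1h2an and Hist1h3i, and those lower were the H2B genes Hist3h2ba, Hist1h2bq, Hist2h2be and Hist1h2bg. The median log2 difference was 0.38 over the tested members and -0.04 over all genes. Libraries did not overlap in 14 members with kFRA above and 7 with kFRA below, against 14.2% and 20.2% of all tested genes. Of the 8 calls, 1 was kept without kFRA replicate 1, WT replicate 1 or WT replicate 2. Without kFRA replicate 3, 3 were kept, and without WT replicate 3, 4 were. Hist1h1e, not among the 8, was called without WT replicate 1.

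Between kFRA and DH-LMP2A, no member was higher and 1, Hist1h4m, was lower (2.44%), against 1.73% and 3.3% of all tested genes (5.02% in either direction). At an unadjusted p below 0.05 by edgeR, 2 members were higher and 8 lower, and DESeq2's Wald test called 1 higher and 2 lower. The median log2 difference was -0.38 over the tested members and 0.00 over all genes, with 31 of 41 values below 0. Libraries did not overlap in 4 members with kFRA above and 8 with kFRA below, against 11.6% and 13.9% of all tested genes. Without kFRA replicate 2, 3 members were higher (Hist1h1c, Hist1h4i and Hist1h2bc) and 1 lower. The 3 comparisons share their libraries in pairs, so their values are given side by side and not as support for each other.

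**Figure D2:**
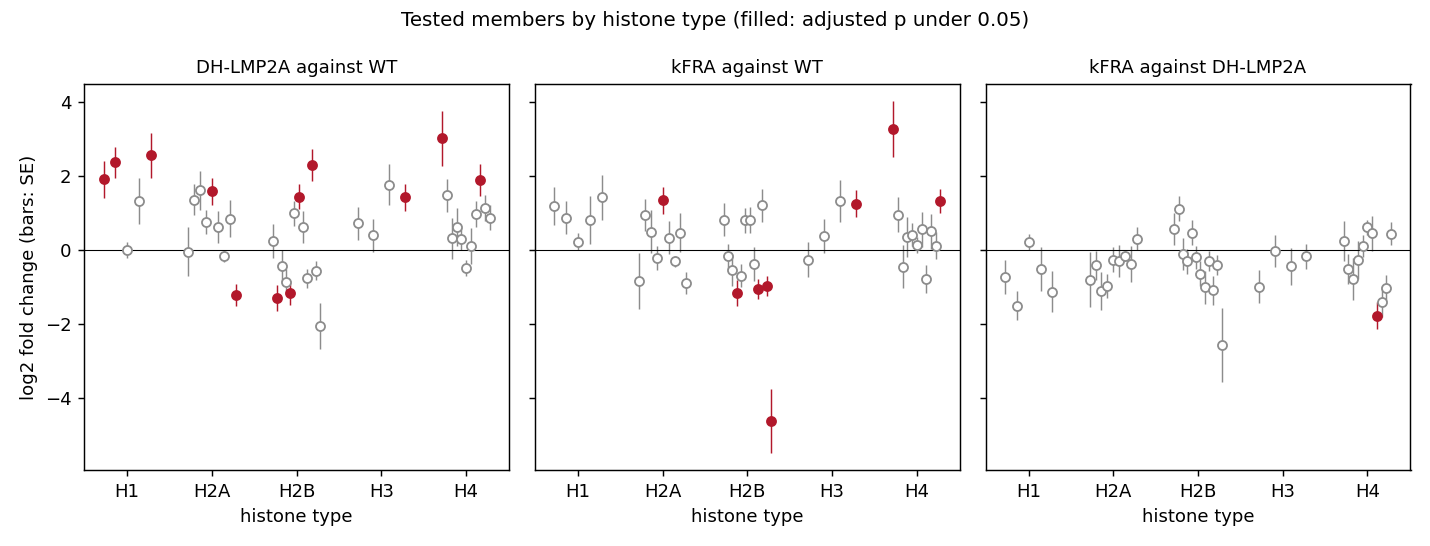
Log2 fold change of each of the 41 tested members, grouped by histone type, in the 3 comparisons; bars are the SE of the edgeR fit over 9 libraries and filled points have an adjusted p under 0.05. Against WT, filled H1, H3 and H4 points lie above 0 in DH-LMP2A and all filled H2B points of kFRA lie below 0; between kFRA and DH-LMP2A the single filled point is Hist1h4m. The 2 most extreme points, Hist3h2ba and Hist1h4a, rest on 2 and 3 counts in their lower group.

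By histone type, the H1 genes had the highest median in DH-LMP2A against WT, log2 1.92 over 5 tested genes with 3 called higher. The median was 1.08 over 4 H3 genes (1 higher), 0.88 over 11 H4 genes (2 higher), 0.76 over 9 H2A genes (1 higher, 1 lower) and -0.49 over 12 H2B genes (2 higher, 2 lower). In kFRA against WT the medians were -0.45 for H2B (0 higher, 4 lower), 0.34 for H2A (1 higher), 0.42 for H4 (2 higher), 0.82 for H3 (1 higher) and 0.88 for H1, where none passed and 2 of 5 were higher at an unadjusted p below 0.05 by edgeR. These medians cover only members that passed the filter on low counts. With no filter, the H2B median in DH-LMP2A against WT changed sign, to 0.07 over 19 genes with 10 above 0, and the other medians of the types against WT kept theirs. Of all tested genes, 5.07% were called higher and 7.3% lower in DH-LMP2A against WT, and 6.68% and 11.1% in kFRA against WT. No test of the difference between types was made.

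Sums over each type were then compared library by library. H2B genes summed to 22.8, 21.97 and 19.3 CPM in DH-LMP2A, 27.2, 20.8 and 20.7 in kFRA and 31.7, 30.7 and 26.7 in WT, so that DH-LMP2A lay below WT and kFRA overlapped it. H3 genes summed to 6.09, 4.26 and 7.64 CPM in DH-LMP2A, 4.10, 4.23 and 5.01 in kFRA and 3.74, 2.4 and 3.12 in WT, with WT below all others. H4 genes summed to 14.2, 12.3 and 24.2 CPM in DH-LMP2A, 14.8, 12.4 and 13.8 in kFRA and 11.4, 12.1 and 11.6 in WT, where DH-LMP2A replicate 3 was far above the rest. Over all 70 members the sums were 160, 141 and 168 CPM in DH-LMP2A, 176, 117 and 163 in kFRA and 149, 151 and 135 in WT, which overlap. Without Hist1h1c and Hist2h2aa2 they were 68.1, 55.4 and 89.0, then 61.9, 52.7 and 56.0, then 61.2, 58.0 and 53.5, and still overlapped.

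**Figure D3:**
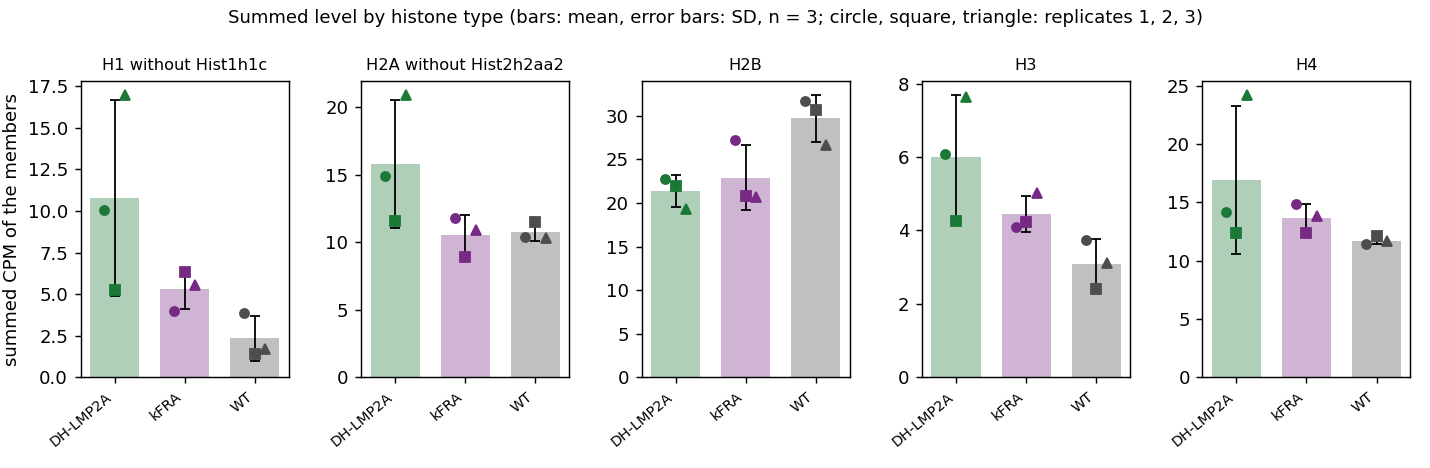
Summed CPM of the members of each histone type in each library, with Hist1h1c left out of H1 and Hist2h2aa2 out of H2A; bars are means, error bars SD (n = 3), symbols replicates, and each axis starts at 0. DH-LMP2A replicate 3 is the highest library for H1, H2A, H3 and H4 but the lowest for H2B, at 19.3 CPM.

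The members were also described by how their annotated transcripts end, a property the symbols do not use. The letters of a polyadenylation signal (AATAAA or ATTAAA) were found within the last 50 bases of at least 1 transcript for 17 of 70 members (24.3%). Counted per transcript and not per gene, they were found in 50.2% of 58797 protein-coding transcripts, so the 2 shares are not in the same unit. A signal past the end of an annotated transcript cannot be found by this search. Of the 29 tested members without such a signal, 8 were higher (27.6%) and 2 lower (6.9%) in DH-LMP2A against WT, with a median log2 difference of 0.86. Of the 12 tested members with it, 1 was higher and 1 lower (8.33% each), with a median of -0.21. Of all tested genes, 5.07% were called higher and 7.3% lower. In kFRA against WT the medians were 0.50 without and 0.13 with the signal. There 2 of the 29 members without it were higher (6.9%) and 1 lower (3.45%). Of the 12 with it, 2 were higher (16.7%) and 3 lower (25%), so the called share was larger with the signal. Of all tested genes, 6.68% were called higher and 11.1% lower in that comparison. In kFRA against DH-LMP2A the medians were -0.52 without and 0.01 with the signal. The medians of the members with the signal changed sign with no filter on low counts, to 0.07 in DH-LMP2A against WT and -0.12 in kFRA against DH-LMP2A over 15 genes, where those without it were 1.0 and -0.54 over 51 genes.

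Split by the stem-loop, the 8 tested members with at least 100 counted bases past it had a median log2 difference of -0.21 in DH-LMP2A against WT, with none higher and Hist3h2a lower; with no filter it was 0.22 over 12 genes, the opposite sign. The 18 with fewer than 100 had 0.79 (3 higher, none lower), and the 14 without a match had 1.51 (6 higher, 1 lower). Of all tested genes, 5.07% were called higher and 7.3% lower in that comparison. Levels per kilobase were not ordered by this split, the median being 0.410 CPM per kb for the long models, 1.17 for the short and 0.756 for those without a match. Summed over the 53 members without a polyadenylation signal, the level was 74.8, 58.0 and 90.9 CPM in DH-LMP2A, 64.0, 52.2 and 60.4 in kFRA and 61.4, 60.2 and 59.4 in WT, with overlapping groups. No test of the difference between these classes was made, and gene models differ between annotations, with 46 of 70 members having the same span in the table and in GENCODE M21.

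**Figure D4:**
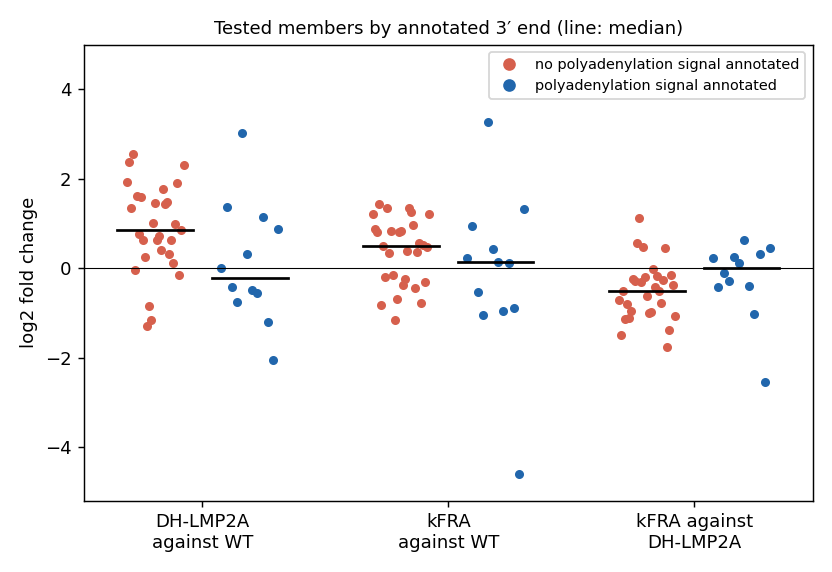
Log2 fold change of the 41 tested members in the 3 comparisons, split into 29 without and 12 with the letters of a polyadenylation signal in the last 50 bases of an annotated transcript. Each point is a gene and the line is the median. In DH-LMP2A against WT the medians are 0.86 and -0.21, and in kFRA against DH-LMP2A -0.52 and 0.01; with no filter on low counts the medians with the signal change sign, to 0.07 and -0.12.

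Many H2A and H2B genes stand head to head, sharing the stretch between their starts. The table holds 14 such pairs, with gaps of 173 to 306 bases, and in 4 of them both genes were tested. Hist1h2ae and Hist1h2bg, 287 bases apart, lay at a mean of 0.757, 0.559 and 0.292 CPM and at 3.07, 2.48 and 5.53 CPM in DH-LMP2A, kFRA and WT, so the H2A gene had its lowest and the H2B gene its highest mean in WT. Hist2h2ac and Hist2h2be, 239 bases apart, were ordered likewise, with 0.731, 0.574 and 0.402 CPM against 1.51, 1.13 and 2.22. Of these 4 genes only Hist1h2bg and Hist2h2be passed, both in kFRA against WT. In the pair Hist1h2ak and Hist1h2bn, 296 bases apart, both genes had their highest mean in DH-LMP2A, with 0.791, 0.380 and 0.254 CPM and 1.03, 0.506 and 0.664 CPM, and neither passed. In the fourth pair, Hist1h2ac and Hist1h2bc, 275 bases apart, the means were 0.411, 0.242 and 0.415 CPM and 4.50, 9.87 and 10.98 CPM. Hist1h2ah, the partner of Hist1h2bk, was at a mean of 0.210, 0.0944 and 0.0170 CPM in the same order, near or under the floor, and was not tested.

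By cluster, the 33 tested genes of Hist1 had a median log2 difference of 0.73 in DH-LMP2A against WT (8 higher, 2 lower) and 0.42 in kFRA against WT (3 higher, 2 lower). The 5 tested Hist2 genes had 0.86 (1 higher) and 0.12 (1 lower). Of all tested genes, 5.07% were called higher and 7.3% lower in DH-LMP2A against WT, and 6.68% and 11.1% in kFRA against WT. Both tested Hist3 genes were negative in each comparison with WT, with Hist3h2a called in DH-LMP2A and Hist3h2ba in kFRA. The Hist3 genes summed to 1.10, 1.48 and 2.29 CPM in DH-LMP2A, 1.64, 1.43 and 2.13 in kFRA and 4.25, 4.64 and 4.2 in WT, so that WT was above all others.

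Few genes that work beside these histones passed. Of 11 histone genes outside the clusters, listed as replication-independent or variant histones, 9 were tested and none passed in any comparison. At most 1 in each direction reached an unadjusted p below 0.05 by edgeR. H2afz, which encodes the variant H2A.Z, was at 52.7, 48.5 and 50.2 CPM in DH-LMP2A, 53.7, 51.8 and 61.6 in kFRA and 55.5, 48.3 and 62.4 in WT. H1f0, the linker histone of resting cells, was at 52.3, 36.7 and 56.3 CPM, then 71.6, 52.1 and 48.5, then 46.8, 60.0 and 63.8 in the same order, and the groups overlapped in both genes. H3f3b, a gene for H3.3, ran from 267 to 517 CPM, and H2afx, the variant marked at DNA breaks, from 9.16 to 18.7.

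Of 18 genes for histone messenger processing and transcription, 1 passed, Cpsf2, a subunit of the cleavage complex, which was lower in kFRA than in WT (log2 -0.60, SE 0.14, edgeR adjusted p = 0.0218). Slbp was at 29.9, 32.0 and 30.6 CPM in DH-LMP2A, 29.1, 30.2 and 27.3 in kFRA and 26.3, 26.4 and 29.0 in WT. Npat was at 11.4, 10.4 and 12.3, then 7.65, 11.9 and 6.71, then 12.1, 10.2 and 10.8. Neither passed in any comparison; the log2 difference in Slbp was 0.18 (SE 0.11) for DH-LMP2A against WT.

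Of 27 S-phase genes, Mcm6, a helicase subunit, was lower than in WT in kFRA (log2 -0.65, SE 0.16, edgeR adjusted p = 0.0237) and in DH-LMP2A (log2 -0.60, SE 0.16, edgeR adjusted p = 0.0396), and no other passed. The list's median log2 difference was 0.11 in DH-LMP2A against WT, -0.32 in kFRA against WT and -0.38 in kFRA against DH-LMP2A. Pcna, the sliding clamp, was at 67.2, 57.3 and 52.7 CPM in DH-LMP2A, 48.6, 57.4 and 50.1 in kFRA and 64.8, 61.9 and 67.6 in WT and did not pass. Of 16 mitosis genes, Bub1b, a checkpoint kinase, was higher in DH-LMP2A than in WT (log2 0.77, SE 0.22, edgeR adjusted p = 0.0483), and no other passed. Their medians were 0.32, -0.41 and -0.73 in the same order. Mki67 was at 469, 447 and 312 CPM in DH-LMP2A, 115, 433 and 122 in kFRA and 283, 218 and 257 in WT, and did not pass.

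Beside the members, the proliferation lists are given by library. As a mean of log2(CPM + 0.5), DH-LMP2A replicates 1 to 3 had 0.40, 0.23 and 0.56 for the members and 4.71, 4.48 and 4.23 for the mitosis genes, so replicate 3 was highest in the first and lowest in the second. kFRA had 0.20, 0.18 and 0.23 for the members and 3.04, 4.42 and 3.53 for the mitosis genes, with replicate 2 high only in the second. WT had 0.18, 0.12 and 0.09 for the members and 4.28, 3.83 and 4.30 for the mitosis genes. The S-phase genes were at 4.15, 3.99 and 3.88 in DH-LMP2A, 3.24, 3.98 and 3.63 in kFRA and 3.99, 3.74 and 4.01 in WT. Between kFRA and DH-LMP2A, values below 0 were found for 31 of 41 members, 25 of 27 S-phase genes and 16 of 16 mitosis genes. The levels of the erythroid list were highest in DH-LMP2A replicate 3 and lowest in WT, and 4 of its 8 genes (Hba-a1, Hbb-bs, Hbb-bt and Alas2) were higher in each mutant genotype than in WT. These values are given beside each other, and the part of erythroid cells in the histone values was not tested.

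**Figure D5:**
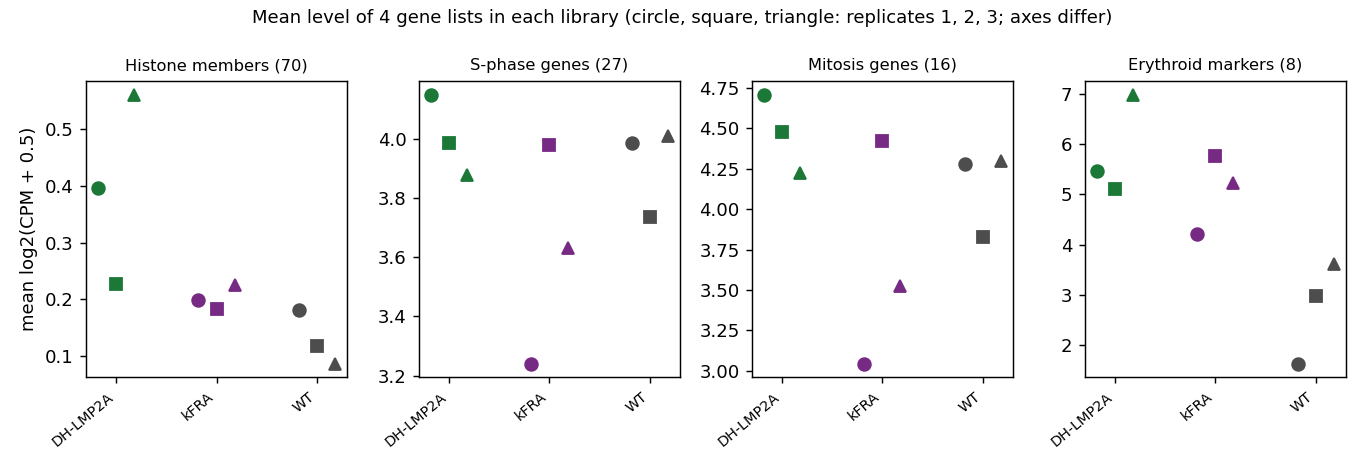
Mean log2(CPM + 0.5) of the 70 members, 27 S-phase genes, 16 mitosis genes and 8 erythroid markers in each library; colours give genotype, symbols the replicate, and the 4 vertical axes differ. In the first panel the triangle of DH-LMP2A is highest, as in the last, while in the middle panels it is the lowest of its group.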

How the data were processed

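Polyadenylated RNA of 9 libraries (3 mice in each of 3 genotypes) was made into stranded libraries from 500 ng of RNA and read as pairs of 75 bases, per the labels' protocols. The authors deposited raw read counts per gene, in the layout of featureCounts per the file headers. The submitters' processing notes name STAR 2.4.0a, Subread 1.5.0-p3, featureCounts, DESeq2, mm10 and GRCm38; the strand setting, the annotation release and the treatment of reads with several matches are not given in the sources used here.

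Counts were fitted for all genes in edgeR 4.0.16 (R 4.3.3): filterByExpr (minimum count 10), TMM scaling, 1 coefficient per genotype over 9 libraries, quasi-likelihood F test, 2-sided, Benjamini-Hochberg over 14199 genes, threshold 0.05. The SE is the log2 fold change divided by the square root of F. The model was tested on simulated data for kFRA against DH-LMP2A only, with changes set in genes drawn from all those tested. That run did not assess members with few counts on their own, nor the comparisons with WT. Ratios against 2 or 3 counts carry exact binomial 95% intervals, which, like the floor, cover counting error alone, because PCR copies without molecular identifiers are counted as separate reads. Replicates are different mice and differed beyond sampling noise (chi-square per degree of freedom 18.3 to 174). Stem-loops and shared 75-base stretches were searched in GENCODE M21 transcripts, and promoters, matched for 62 of 70 members, come from RefSeq (GRCm38.p6).

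The members and gene lists were chosen with earlier results of these data known. By rule, the text names up to 10 called members per comparison in order of p, the 2 members of each type with the highest level per kilobase, and 8 fixed genes of the other lists; Hist1h2bh, Hist1h1d, Cpsf2, Mcm6, Bub1b and the partners in head-to-head pairs were added after their values were seen. Alternatives were DESeq2 size factors, library size alone, no filter, no immunoglobulin genes, a replicate block, Xist as a covariate, only the libraries compared, DESeq2 1.42.0, and leaving out each library.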

Additional observations from a re-analysis of the deposited data

How the results depend on the processing

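DESeq2's size factors and the fit without immunoglobulin genes kept every count of members and of genes called within 1.5 times. Counts that moved are given as main value and then value under the alternative. For kFRA against DH-LMP2A, 0 members higher became 1 under DESeq2's Wald test, 1 lower became 3 with Xist as a covariate, 0 with only the 6 libraries compared and 2 under the Wald test, and 713 called genes became 1329 under the Wald test. For kFRA against WT, 4 higher became 2 with no filter, with the replicate block, with the Xist covariate, with only the 6 libraries and under the Wald test, and 4 lower became 1 with library size alone, 2 with no filter and 1 with only the 6 libraries. For DH-LMP2A against WT, 9 higher became 18 and 3 lower became 0 with library size alone, and 3 lower became 1 with the Xist covariate. Leaving out a library gave 0 to 3 higher, 0 to 2 lower and 352 to 3299 genes in all for kFRA against DH-LMP2A, 0 to 5 higher, 1 to 4 lower and 1271 to 5632 genes for kFRA against WT, and 2 to 9 higher, 0 to 2 lower and 932 to 1408 genes for DH-LMP2A against WT; without kFRA replicate 2 the largest of these totals, 3299 and 5632, were reached. Among the called members named by rule, no value changed sign under any alternative run. The signs of other called genes, Hist1h2bh among them, were not followed. The cause of these moves was not tested.

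Same-numbered libraries come from different mice. Their deviations correlated at -0.21 to 0.20, and those of differently numbered libraries at -0.27 to 0.29. The main fit did not pair libraries by number. With 3 libraries per genotype, a batch shared by number cannot be told from these values. With the replicate block, kFRA against WT kept 6 of 8 calls (2 higher, 4 lower). DH-LMP2A against WT then gave 8 higher and 4 lower, and kFRA against DH-LMP2A gave 0 higher and 1 lower. Depth limits the family: all but 2 tested members had fewer than 100 counts in at least 1 library.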
